A study of Mus musculus with 6 samples.

Results

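Endothelial cells line the blood and lymphatic vessels that enter the connective tissue around the developing bladder neck and urethra. The genes described here are 33 members of the endothelial programme, taken by name from a fixed list and read on 6 arrays of the separated epithelium and mesenchyme of that region. Each gene was represented by the brightest of its probe sets (the groups of short oligonucleotides that report a transcript) annotated to that gene alone. All 33 were found among 18193 genes with such a probe set, and 31 passed a filter on low signal that left 13717 genes to test. The filter kept probe sets whose mean lay above the 40th percentile, a normalized signal of about 96.3. Tie1 and Rasip1 fell below it.

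The tissue was dissected on embryonic day 13, at Theiler stage 21, from mice of the FVB/N strain that were wild type, of unknown sex and not pooled. Trypsin and a needle were used to part the layers, after which total RNA was amplified in 2 rounds and hybridised to the Affymetrix mouse whole-genome array. Epithelium, called urothelium in the sample titles, was measured on arrays numbered 1, 2 and 5, and mesenchyme on arrays 1, 2 and 3. No treatment or mutation distinguishes any array, and the labels do not say whether arrays of a layer came from separate embryos, so the p-values measure only the spread between these samples, which may be technical.

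The question of the study is which genes set the layers apart. Values below are normalized signal units, and differences are mesenchyme minus epithelium of log2(signal + 16), so a positive value is higher in mesenchyme. Errors are standard errors from limma with n = 3 arrays per layer, and adjusted p is Benjamini-Hochberg over all tested genes with a threshold of 0.05. The added offset shrinks the differences of dim genes. No detection calls were used here, so a low signal has no stated background.

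The layers carried their own markers, but mesenchyme 1 stood apart. All 10 mesenchymal marker genes had positive differences (median 2.43) and 6 passed, led by Prrx1 (3.29), Col1a2 (3.23) and Tbx18 (2.95). Prrx1 and Tbx18 lost the call without epithelium 1, epithelium 5 or mesenchyme 2, and Tbx18 without mesenchyme 3 as well. All 11 epithelial markers were higher on every epithelial array than on any mesenchymal array, yet only Grhl2 (-4.83) and Cldn4 (-2.24) passed, against 11 of 11 without mesenchyme 1. Of all tested genes 15.5% had every mesenchymal array below every epithelial array. The shares that passed were 4.03% as higher in mesenchyme and 1.95% as higher in epithelium, or 8.2% and 6.41% without mesenchyme 1. Cldn4 lost the call without any array but mesenchyme 1 (adjusted p from 0.0605 to 0.214). The summed signal of these 11 was 217351 to 246241 on the epithelial arrays, 15030 and 3062 on mesenchyme 2 and 3, and 94341 on mesenchyme 1. A list of 12 markers of liver, heart, pancreas, lung and epidermis had a summed signal of 335898 for mesenchyme 1 and of 2573 to 21430 elsewhere, and in limma 0 of 10 tested passed (0 at an unadjusted p under 0.05). On the epithelial arrays most of that sum was the epidermal gene Lor, at 16053, 10074.5 and 19300 on epithelium 1, 2 and 5. Lor read 3922 and 982 on mesenchyme 2 and 3. Without mesenchyme 1, 8 of the 10 mesenchymal markers passed, and of 7 tested markers of other organs 1 did (Lor, a protein of the epidermal surface, higher in epithelium at -2.91). Each tested member and each list is therefore given with and without mesenchyme 1.

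Endothelium is held together by VE-cadherin and claudin junctions, and its growth is steered by receptor tyrosine kinases of the VEGF and angiopoietin systems. Its identity is set by ETS factors such as Erg and Fli1, by the SoxF factors Sox7, Sox17 and Sox18, and, shared with blood, by Tal1 and Lmo2. Around organs of the urogenital tract the vessels run in the mesenchyme, and epithelia produce some of the ligands that guide them.

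As a group the endothelial genes were higher in mesenchyme. Of the 31 tested, 21 passed the threshold with 6 arrays, all higher in mesenchyme, where 5.98% of all tested genes passed and 4.03% did so as higher in mesenchyme. Without mesenchyme 1 the count was 23 of 31, against 14.6% of all genes in either direction and 8.2% higher in mesenchyme, and it included all 21. Of these 21, Plvap and Vwf had every epithelial array below the filter and were tested only through their mesenchymal signal. The median difference of the 31 was 3.31 with 6 arrays and 3.27 without mesenchyme 1, where the median over all tested genes was -0.12 and -0.02. On 29 of the 31 every mesenchymal array lay above every epithelial array, against 13.2% of all tested genes (29 and 22.3% without mesenchyme 1). In whole tissue layers, fewer endothelial cells and less RNA per cell cannot be told apart. The members' summed signal was 77209 to 103315 on the mesenchymal and 5571 to 9850 on the epithelial arrays.

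**Figure D1:**
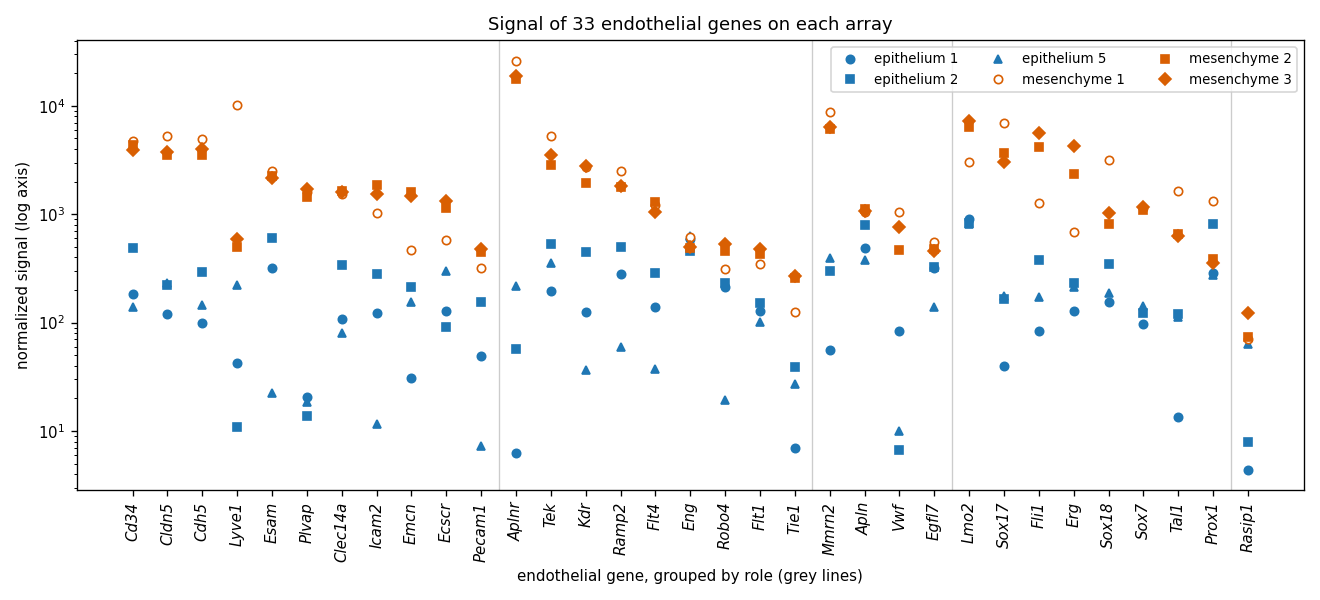
Normalized signal (log axis) of the 33 endothelial genes on each of the 6 arrays, grouped by role and ordered within a role by mesenchymal mean. For 31 genes the 3 mesenchymal points (orange, mesenchyme 1 open) all lie above the 3 epithelial points (blue), the exceptions being Eng and Prox1.

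The promoters of these genes were looked up because the members differed together. RefSeq promoter windows (build GRCm38.p6, 250 bases before to 50 after a gene's start) were matched by symbol for 17 of the 33 genes, in 23 windows. They were searched on both strands for the ETS words AGGAAG and CGGAAG, the GATA word AGATAA, the SOX word AACAAT and the Tal1-type E-box CAGATG, each counted separately whether or not matches overlapped. The 4 windows below belong to genes whose mesenchymal arrays all lay above the epithelial ones and were chosen, after their letters were seen, to show each word but CGGAAG. Capitals mark the matches. They are Kdr (chr5:75978406-75978705, minus strand), with an E-box word, Tek (chr4:94739039-94739338, plus strand), with a SOX word and a GATA word, Cd34 (chr1:194938571-194938870, plus strand), with an ETS word, and Emcn (chr3:137340828-137341127, plus strand), with ETS words and a SOX word.
Kdr: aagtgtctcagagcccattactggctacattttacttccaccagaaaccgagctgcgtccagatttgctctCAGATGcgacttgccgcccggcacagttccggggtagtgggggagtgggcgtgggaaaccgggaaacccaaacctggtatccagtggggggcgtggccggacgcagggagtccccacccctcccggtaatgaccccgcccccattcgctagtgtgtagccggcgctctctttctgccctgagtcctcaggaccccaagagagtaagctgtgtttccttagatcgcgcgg
Tek: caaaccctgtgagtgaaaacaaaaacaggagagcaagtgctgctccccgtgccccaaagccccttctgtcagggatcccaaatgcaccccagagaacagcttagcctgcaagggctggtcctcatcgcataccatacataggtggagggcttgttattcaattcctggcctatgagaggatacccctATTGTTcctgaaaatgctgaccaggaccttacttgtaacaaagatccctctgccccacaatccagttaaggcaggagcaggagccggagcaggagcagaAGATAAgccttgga
Cd34: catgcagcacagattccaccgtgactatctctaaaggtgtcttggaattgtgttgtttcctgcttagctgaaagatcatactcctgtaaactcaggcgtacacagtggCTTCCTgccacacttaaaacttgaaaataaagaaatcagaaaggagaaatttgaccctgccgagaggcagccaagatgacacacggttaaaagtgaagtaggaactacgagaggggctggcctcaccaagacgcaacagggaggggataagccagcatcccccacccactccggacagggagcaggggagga
Emcn: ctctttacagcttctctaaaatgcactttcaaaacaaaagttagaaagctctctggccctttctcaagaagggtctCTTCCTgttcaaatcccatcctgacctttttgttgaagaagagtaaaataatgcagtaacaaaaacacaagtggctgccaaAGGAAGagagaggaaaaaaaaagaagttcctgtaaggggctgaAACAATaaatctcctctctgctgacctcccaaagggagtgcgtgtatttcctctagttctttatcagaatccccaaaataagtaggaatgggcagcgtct
The ETS word AGGAAG was in 11 of the 23 member windows (47.8%, against 35.4% of all 32851 windows) and CGGAAG in 1 (4.35% against 16.9%). Either of them was in 11 (47.8% against 46.5%). The GATA word was in 3 (13.0% against 11.2%), the SOX word in 3 (13.0% against 10.7%) and the E-box word in 6 (26.1% against 17.2%). These letter matches are descriptions of the windows and not binding sites.

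The junction and surface genes gave 7 of 11 members past the threshold with 6 arrays and 8 without mesenchyme 1, with a median difference of 3.81. Cdh5, which encodes VE-cadherin of the adherens junction, read 99.3, 294 and 146 on epithelium 1, 2 and 5 and 4914, 3529 and 4012 on mesenchyme 1, 2 and 3. The layers were far apart for this gene, and the highest epithelial value was well under the lowest mesenchymal value. Cdh5 was 23.0-fold higher in mesenchyme (log2 4.52 ± 0.435 SE, adjusted p = 0.00394) and 22.6-fold without mesenchyme 1. Its dimmer second probe set stayed below the filter and read -1.14, so with the mean of both probe sets the difference was 1.69 and missed the threshold (adjusted p = 0.0625).

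Cldn5, the claudin of endothelial tight junctions, read 119.8, 224 and 230.5 on the epithelial and 5297, 3551 and 3733 on the mesenchymal arrays. The mesenchymal arrays were close together and the difference was 4.37 ± 0.377 (20.7-fold, adjusted p = 0.00363), or 4.29 without mesenchyme 1 (adjusted p = 0.000939). Plvap, which forms the diaphragms of fenestrated endothelium, read 20.6, 13.7 and 18.6 in epithelium and 1606, 1449.8 and 1716 in mesenchyme. Every epithelial value of Plvap lay below the filter at 96.3, so the gene was tested only through its mesenchymal signal. At 5.58 ± 0.375 (47.8-fold, adjusted p = 0.00231) it had the largest difference of the junction and surface genes. Without mesenchyme 1 it was 5.62 (adjusted p = 0.000738). Cd34, a sialomucin of endothelium that blood progenitors and some fibroblasts also carry, read 185, 485 and 140.1 against 4776, 4370.5 and 3921. Its layers did not overlap and differed by 4.12 ± 0.475 (adjusted p = 0.00599), or 4.15 without mesenchyme 1 (adjusted p = 0.00242).

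Clec14a, an endothelial C-type lectin, read 108, 338 and 80.9 in epithelium and 1537, 1633 and 1594 in mesenchyme (3.31 ± 0.526, adjusted p = 0.015). Ecscr, a surface regulator of endothelial migration, read 128, 91.7 and 302 against 576, 1138 and 1329 (2.51 ± 0.544, adjusted p = 0.0413). Icam2, an adhesion molecule that leukocytes and platelets carry too, read 122, 280.4 and 11.5 against 1033, 1868 and 1543 (3.81 ± 0.838, adjusted p = 0.0435). For Ecscr and Icam2 mesenchyme 1 was the lowest mesenchymal array. Without it the differences of Clec14a, Ecscr and Icam2 were 3.41, 2.94 and 4.11 (adjusted p = 0.00764, 0.0081 and 0.0233). Without epithelium 1, epithelium 5, mesenchyme 2 or mesenchyme 3 these 3 genes lost the call, at adjusted p from 0.0551 to 0.0875 for Clec14a, 0.0581 to 0.175 for Ecscr and 0.0643 to 0.152 for Icam2, and Ecscr did so without epithelium 2 as well (0.118). With no filter on low signal Ecscr and Icam2 missed the threshold, and Icam2 also did so with an offset of 1 and without the trend in the variance model.

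The other 4 surface genes missed the threshold with all arrays although their layers did not overlap on the brightest probe set. Emcn, the sialomucin endomucin of veins and capillaries, read 31, 214 and 155 against 472, 1603 and 1461, with mesenchyme 1 lowest of its layer. Its difference was 3.10 ± 0.743 (adjusted p = 0.0578) and became 3.74 without mesenchyme 1 (adjusted p = 0.0104). Pecam1, the adhesion molecule CD31, was dim, at 49.3, 155 and 7.3 against 322, 444 and 474, and its difference of 2.73 ± 0.743 had adjusted p = 0.0851, or 2.89 with adjusted p = 0.0562 without mesenchyme 1. Leaving out epithelium 2 brought Pecam1 past the threshold (adjusted p = 0.0491). Esam, an immunoglobulin-family junction protein, read 321, 599 and 22.6 against 2499.9, 2275 and 2146. Its mesenchymal arrays were alike while epithelium 5 lay far below the other epithelial arrays, and 3.54 ± 0.949 had adjusted p = 0.0812, or 3.55 with adjusted p = 0.0741 without mesenchyme 1. Lyve1, the hyaluronan receptor of lymphatic endothelium that some macrophages and liver sinusoids also express, read 42.7, 10.8 and 223 in epithelium and 10289, 496 and 586 in mesenchyme. Mesenchyme 1 was far above mesenchyme 2 and 3, which in turn lay above every epithelial array, and the difference of 4.35 ± 1.29 (adjusted p = 0.112) was 2.96 without mesenchyme 1 (adjusted p = 0.0686). On the second probe set of Lyve1 the layers overlapped, at 108.7, 133.6 and 18.85 against 335.3, 136.7 and 121.2. There the difference was 1.17 (adjusted p = 0.455 in a limma fit of all probe sets one by one), or 0.73 without mesenchyme 1.

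Among the receptors, 5 of 8 tested members passed with 6 arrays and 6 without mesenchyme 1, with a median difference of 3.16. Kdr, the main signalling receptor for VEGF-A, read 126, 453 and 36.2 in epithelium and 2728, 1942 and 2785 in mesenchyme. The groups were separate, and Kdr was 16.3-fold higher in mesenchyme (4.03 ± 0.753, adjusted p = 0.0252), with a difference of 4.04 without mesenchyme 1 (adjusted p = 0.0188). Flt4, the receptor for VEGF-C and VEGF-D that lymphatic endothelium retains, read 140.0, 288 and 37.0 against 1228, 1308 and 1054 (3.15 ± 0.637, adjusted p = 0.0329), or 3.20 without mesenchyme 1 (adjusted p = 0.0233). Its second probe set read 0.23, and with the mean of both Flt4 missed the threshold (1.69, adjusted p = 0.0719). Kdr and Flt4 also lost the call without epithelium 1, epithelium 5, mesenchyme 2 or mesenchyme 3, at adjusted p from 0.0658 to 0.121 for Kdr and 0.0643 to 0.129 for Flt4. Flt1, a high-affinity VEGF-A receptor with a soluble decoy form, read 129, 152 and 101 against 345, 426 and 476. On this brightest probe set the difference of 1.59 ± 0.39 had adjusted p = 0.062, or 1.74 with adjusted p = 0.0212 without mesenchyme 1. The other probe sets of Flt1 read 2.62, -0.02 and, below the filter, 3.14, so the size depended on the probe set.

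Tek, the angiopoietin receptor, read 195, 535 and 352 in epithelium and 5311, 2829 and 3538 in mesenchyme. Tek was 10.8-fold higher in mesenchyme (3.43 ± 0.452, adjusted p = 0.00852), or 9.66-fold without mesenchyme 1 (3.27, adjusted p = 0.00325). Among the arrays left out 1 at a time, only epithelium 5 moved it just over 0.05 (adjusted p = 0.0502). Tie1, its co-receptor, was too dim to be tested and read 7.0, 38.7 and 27.2 against 126, 260.0 and 269. Every mesenchymal array was above every epithelial array for Tie1, as for Tek.

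Aplnr, the G-protein-coupled receptor for apelin, read 6.3, 57.6 and 219.9 in epithelium and 26127, 17638 and 18943 in mesenchyme, the widest separation among the members. Its brightest probe set matches several transcripts of the gene and gave 8.14 ± 0.79 (adjusted p = 0.00394), or 8.05 without mesenchyme 1 (adjusted p = 0.00167). The second probe set, of the unique kind, read 63.4, 131 and 12.8 against 2870, 1624 and 1787 and gave 4.88 ± 0.621 (adjusted p = 0.00895 in a limma fit of all probe sets one by one). Both probe sets thus passed, with sizes that differed. Ramp2, the partner protein that makes Calcrl an adrenomedullin receptor, read 278, 495 and 59.4 against 2497, 1783 and 1807 (3.17 ± 0.687, adjusted p = 0.0415), or 3.08 without mesenchyme 1 (adjusted p = 0.035). Ramp2 lost the call without epithelium 1, epithelium 5, mesenchyme 2 or mesenchyme 3 (adjusted p from 0.0634 to 0.137), and also with no filter, with an offset of 1 and without the trend. Robo4, an endothelial roundabout receptor, read 212, 234 and 19.3 against 315, 454 and 526. Robo4 showed a difference of 1.80 ± 0.79 that did not pass (adjusted p = 0.27), or 2.02 without mesenchyme 1 (adjusted p = 0.187).

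Eng, the endoglin co-receptor for BMP and TGF-beta ligands, depended on the probe set. The brightest read 595, 455 and 631 in epithelium and 610.1, 491 and 504 in mesenchyme, so the layers overlapped (-0.06 ± 0.329, adjusted p = 0.935, and -0.16 with adjusted p = 0.798 without mesenchyme 1). The second read 49.5, 169.7 and 34.2 against 1466, 994 and 974. In the fit of all probe sets, which was added after the values were seen, the second probe set of Eng differed by 3.75 ± 0.553 (adjusted p = 0.0133), and with the mean of both Eng passed (1.84, adjusted p = 0.0226). Of 13 further probe sets of members that lay above the filter, from 9 genes, 10 had the sign of the brightest. Those that did not belonged to Eng, Flt1 and Egfl7. With every probe set tested, 22 members had at least 1 past the threshold. Of all probe sets 2.9% passed as higher in mesenchyme. That share counts probe sets and the 22 counts genes, so they cannot be compared directly.

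**Figure D2:**
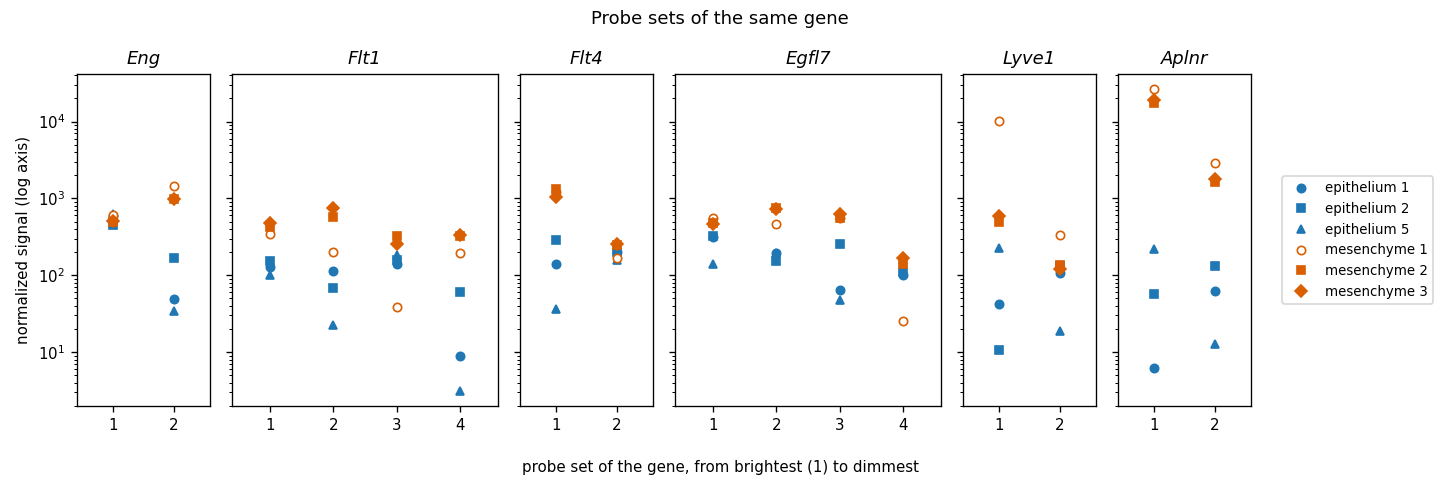
Normalized signal (log axis) on each array for every probe set of Eng, Flt1, Flt4, Egfl7, Lyve1 and Aplnr, numbered from brightest to dimmest. The first Eng probe set overlaps between layers (455 to 631 in both), whereas on the second the mesenchymal arrays read 974 to 1466 and the epithelial arrays at most 169.7.

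Of 4 secreted members, 2 passed in both fits. Mmrn2, a matrix glycoprotein around endothelium that binds Clec14a, read 55.6, 299 and 394 in epithelium and 8709, 6136 and 6402 in mesenchyme. Its 33.4-fold difference (5.06 ± 0.654, adjusted p = 0.00803) was positive on all 4 of its probe sets, from 2.42 to 5.06. Without mesenchyme 1 it was 5.01 (adjusted p = 0.00436). Vwf, the von Willebrand factor of endothelium and platelets, read 83.6, 6.7 and 10.0 against 1049, 471 and 763 (4.25 ± 0.686, adjusted p = 0.0155), or 3.97 without mesenchyme 1 (adjusted p = 0.0119). Leaving out epithelium 2, epithelium 5, mesenchyme 2 or mesenchyme 3 ended the call of Vwf, at adjusted p from 0.056 to 0.0689. Every epithelial value of Vwf lay below the filter at 96.3, so the gene was tested only through its mesenchymal signal.

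Apln, the ligand of Aplnr, showed a far smaller difference than its receptor. It read 485, 792 and 378 in epithelium and 1038, 1126 and 1081 in mesenchyme (1.02 ± 0.369, adjusted p = 0.184). The layers did not overlap for Apln, but the gene did not pass in either fit (1.08, adjusted p = 0.107, without mesenchyme 1). Egfl7, a secreted protein of vessel assembly, read 318, 325 and 140.1 against 553, 474 and 458 on its brightest probe set (0.97 ± 0.433, adjusted p = 0.279), or 0.90 without mesenchyme 1 (adjusted p = 0.253). Its 3 other probe sets read 1.73, 2.43 and -0.38, the first of which passed in the fit of all probe sets (adjusted p = 0.0446). Those at 0.97 and 1.73 are of the kind that can cross-match.

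**Figure D3:**
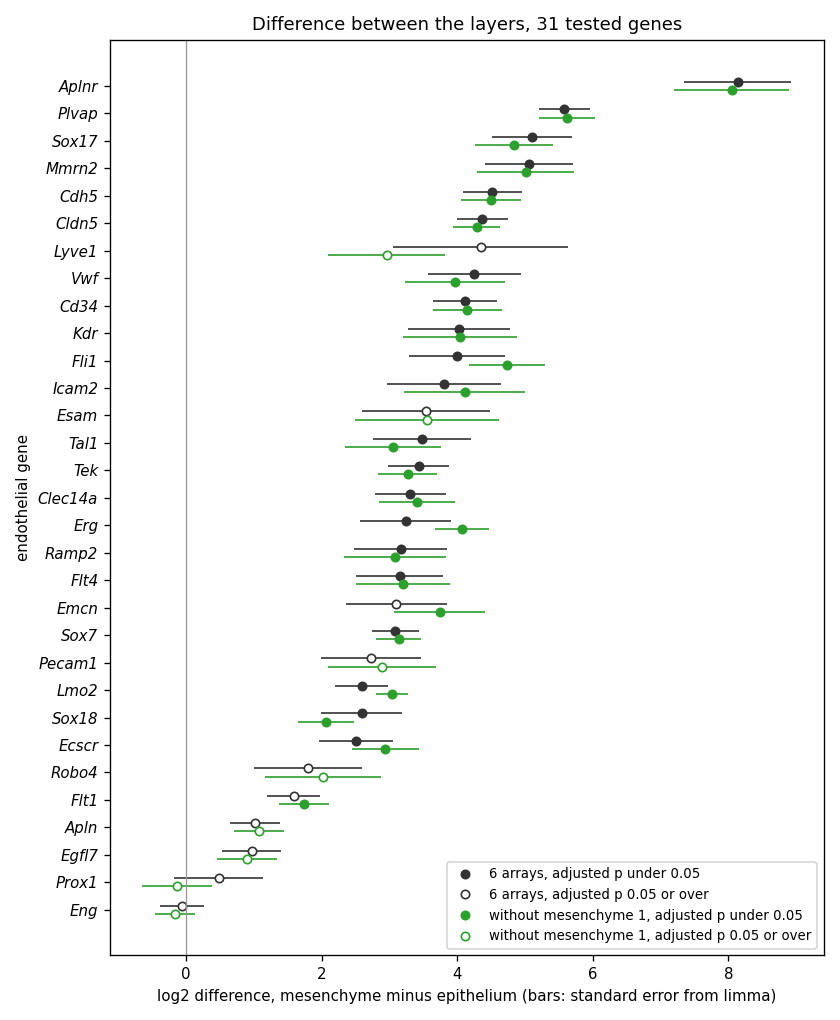
Log2 difference, mesenchyme minus epithelium, of the 31 tested endothelial genes with its standard error from limma, with 6 arrays (black) and without mesenchyme 1 (green). Filled points have adjusted p under 0.05 (21 and 23 genes). Aplnr lies at 8.14, and Eng and Prox1 lie near 0.

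The transcription factors gave 7 of 8 members past the threshold in both fits, with a median difference of 3.16. Sox7 read 96.9, 124 and 143 in epithelium and 1153, 1096 and 1167 in mesenchyme, with a difference of 3.09 ± 0.341 (adjusted p = 0.00521), or 3.14 without mesenchyme 1 (adjusted p = 0.00161). Its second probe set lay below the filter, at 33.7 to 67.7 in epithelium and 41.8 to 90.7 in mesenchyme, and differed by 0.37. With the mean of both, Sox7 differed by 1.73 (adjusted p = 0.0317). Sox17 read 39.6, 167 and 176 against 7021, 3649.8 and 3028 on a probe set of the cross-matching kind (5.10 ± 0.59, adjusted p = 0.00599), or 4.84 without mesenchyme 1 (adjusted p = 0.00219). Its other probe set lay below the filter, at 43.0 to 88.9 in epithelium and 65.4 to 189 in mesenchyme, with a difference of 0.90. With the mean of both, Sox17 differed by 3.0 (adjusted p = 0.0117). Sox18 read 154, 351 and 186 against 3160.5, 817 and 1026, with mesenchyme 1 the highest. Its 2.59 ± 0.592 was only just past the threshold (adjusted p = 0.0496), or 2.06 without mesenchyme 1 (adjusted p = 0.0163), and Sox18 missed it in 11 of 18 other settings, among them each array left out other than mesenchyme 1 (adjusted p from 0.0825 to 0.207).

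Erg and Fli1, ETS factors that maintain endothelial identity, ran the other way on mesenchyme 1. Erg read 128, 233 and 215 in epithelium and 680.2, 2344 and 4237 in mesenchyme, and Fli1 read 82.9, 379 and 172 against 1281, 4151 and 5561. For both genes mesenchyme 1 was the lowest mesenchymal array, yet it lay above the epithelial arrays. Erg differed by 3.24 ± 0.67 (9.46-fold, adjusted p = 0.0352), or 4.07 ± 0.393 (16.8-fold, adjusted p = 0.00128) without mesenchyme 1. Fli1 differed by 4.0 ± 0.704 (adjusted p = 0.0208), or 4.74 ± 0.561 (26.6-fold, adjusted p = 0.00222). With the mean of its probe sets Erg missed the threshold (1.60, adjusted p = 0.156). Erg also lost the call with no filter and without any array but mesenchyme 1 (0.0914 to 0.162), and Fli1 without epithelium 1, epithelium 5, mesenchyme 2 or mesenchyme 3 (0.0664 to 0.0975).

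Tal1 and its partner Lmo2, which act in both endothelial and blood lineages, also passed. Tal1 read 13.4, 119.6 and 113 in epithelium and 1645, 656 and 628 in mesenchyme (3.48 ± 0.723, adjusted p = 0.0358), or 3.06 without mesenchyme 1 (adjusted p = 0.0293). Lmo2 read 906, 826 and 809 against 3026, 6345 and 7268 (2.59 ± 0.39, adjusted p = 0.0124), or 3.04 without mesenchyme 1 (adjusted p = 0.000789). Mesenchyme 1 was the highest mesenchymal array for Tal1 and the lowest for Lmo2. Tal1 lost the call with no filter, with an offset of 1 and without any array but mesenchyme 1 (0.0722 to 0.106), and Lmo2 without epithelium 1, epithelium 5, mesenchyme 2 or mesenchyme 3 (0.0515 to 0.0737). Prox1, the factor that sets lymphatic identity and that some epithelia and neurons also express, read 289.8, 807 and 275 in epithelium and 1320.4, 383 and 354 in mesenchyme. The layers overlapped for Prox1 (0.48 ± 0.653, adjusted p = 0.723), and its difference was -0.13 without mesenchyme 1 (adjusted p = 0.915). Rasip1, an intracellular Rap1 and Ras effector needed for vessel lumens, lay below the filter at 4.4, 8.0 and 63.5 in epithelium and 71.2, 73.7 and 123 in mesenchyme.

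How firmly each member passed differed. The calls of 8 genes held whichever array was left out, namely Aplnr, Cd34, Cdh5, Cldn5, Mmrn2, Plvap, Sox7 and Sox17, and the other 13 lost the call without at least 1 array. Leaving out epithelium 1, 2 or 5 gave 10, 17 or 8 members past the threshold, and leaving out mesenchyme 1, 2 or 3 gave 23, 9 or 9. The share of all genes higher in mesenchyme moved too, to 0.844%, 2.99%, 1.4%, 8.2%, 0.92% and 1.66% in the same order. The median of the members stayed between 3.09 and 3.67.

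Epithelial arrays differed in how much endothelial signal they held. Epithelium 2 was the highest epithelial array for 21 of the 33 members, where it was highest for 40.9% of all tested genes. The summed signal of the members was 9850 on epithelium 2 and 5571 and 5895 on epithelium 1 and 5. Mesenchymal markers summed to 53458 on epithelium 2 and to 33304 and 45443 on epithelium 1 and 5, with medians of 2320, 1410 and 2230 in the same order. Pdgfra, Col3a1, Twist1, Lum, Tbx18 and Prrx1 were highest on epithelium 2 among the epithelial arrays. Col1a1, Col1a2, Vim and Dcn were highest on epithelium 5. The part of mesenchymal cells in the endothelial values was not tested.

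The mesenchymal arrays were compared gene by gene. None of the 33 members differed over 2-fold between mesenchyme 2 and 3, where 4.09% of all tested genes did, and the widest gap was 1.80-fold for Erg. On mesenchyme 1, 5 members lay over 2-fold above the mean of mesenchyme 2 and 3 and 5 lay over 2-fold below, where 15.8% and 22.7% of all tested genes did. The members' shares were thus no larger than those of all genes. These folds are on the log2(signal + 16) scale. Those above were Lyve1 (18.6-fold), Prox1 (3.48-fold), Sox18 (3.41-fold), Tal1 (2.53-fold) and Sox17 (2.11-fold). Those below were Erg (4.55-fold), Fli1 (3.72-fold), Emcn (3.17-fold), Lmo2 (2.24-fold) and Ecscr (2.11-fold). Of the 8 transcription factors 7 were outside 2-fold, all but Sox7, whereas all 9 receptors and all 4 secreted members were within it. The median offset of the members was 0.18, against -0.23 over all tested genes.

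**Figure D4:**
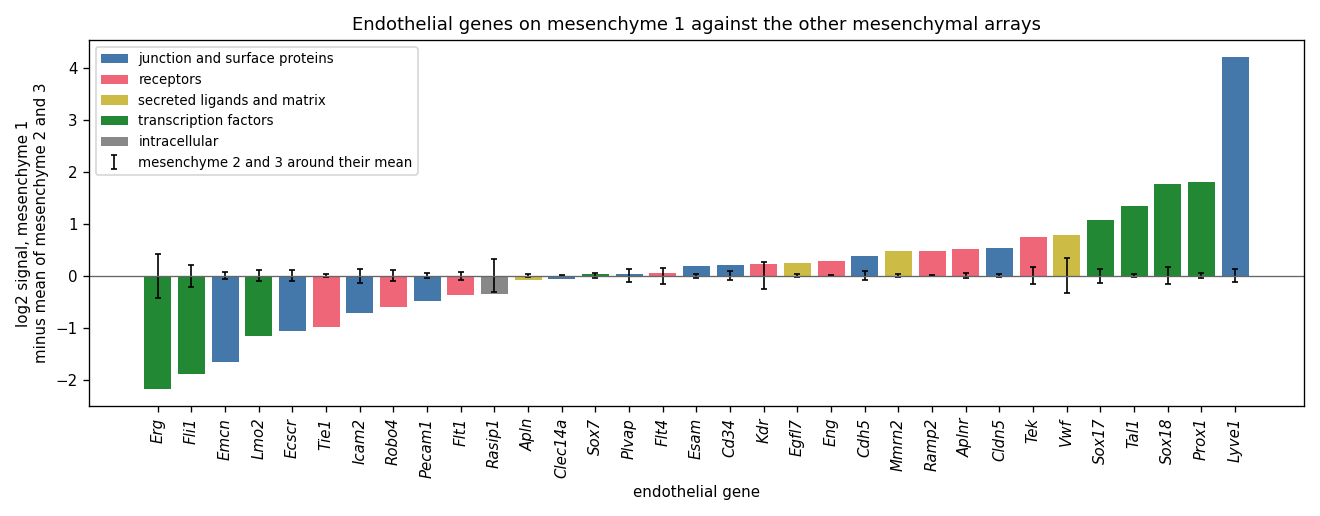
Log2 signal of each endothelial gene on mesenchyme 1 minus the mean of mesenchyme 2 and 3, coloured by role, with black bars showing how far mesenchyme 2 and 3 lie from their own mean. Bars range from Erg, 4.55-fold lower on mesenchyme 1, to Lyve1, 18.6-fold higher, and all 9 receptors stay within 2-fold.

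Some markers of cells that could share these genes read differently on mesenchyme 1 than on mesenchyme 2 and 3. All 13 macrophage and leukocyte markers were on the array, and 12 of them were higher on mesenchyme 1 than on mesenchyme 2 and 3, where 36% of all tested genes were. The summed signal of the 13 was 65322 on mesenchyme 1, 18965 and 13902 on mesenchyme 2 and 3, and 4102 to 8331 on the epithelial arrays. Of 11 tested with 6 arrays 1 passed as higher in mesenchyme, Laptm5 of haematopoietic lysosomes (2.90 ± 0.539, adjusted p = 0.0249), which read -0.55 on its unique probe set and lost the call without epithelium 1, epithelium 2, mesenchyme 2 or mesenchyme 3 (0.0521 to 0.124). Without mesenchyme 1, 4 of 11 passed, all higher in mesenchyme, namely Laptm5 (2.58), the mannose receptor Mrc1 (2.43), the complement gene C1qb (1.94) and Csf1r (1.88). Of all tested genes 4.03% passed as higher in mesenchyme with 6 arrays and 8.2% without mesenchyme 1. Csf1r, the macrophage growth factor receptor, read 27484, 7168 and 5105 on mesenchyme 1, 2 and 3. Megakaryocyte and platelet markers, relevant to Vwf, had a summed signal of 20016 for mesenchyme 1 and of 2093 to 2423 elsewhere. Most of the sum on mesenchyme 1 came from Pf4 (13493) and Ppbp (5060). Of the 7 markers on the array, 4 were higher on mesenchyme 1 than on mesenchyme 2 and 3 and 2 were lower. Of all tested genes 36% were higher and 55.4% lower. In limma 0 of 5 tested passed with 6 arrays, where 1 (Pf4) had an unadjusted p under 0.05, and 1 of 4 passed without mesenchyme 1 (Pf4, 1.79, adjusted p = 0.0315). Platelet factor Pf4 read 13493 on mesenchyme 1 and 874 and 882 on mesenchyme 2 and 3, while Itga2b, the platelet integrin, read 646, 539.6 and 682.

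Of 7 tested erythroid markers 0 passed in limma, where 1 (Slc4a1) had an unadjusted p under 0.05, and 0 of 6 passed without mesenchyme 1, where 2 had such a p. Of all tested genes 4.03% passed as higher in mesenchyme and 1.95% as higher in epithelium, or 8.2% and 6.41% without mesenchyme 1. On mesenchyme 1, 5 of the 8 markers on the array were higher than on mesenchyme 2 and 3, and 3 were lower. These shares were 36% and 55.4% for all tested genes. The 3 lower were embryonic globins. Hbb-y, an embryonic globin, read 2301, 56536 and 56536 on mesenchyme 1, 2 and 3 and 26127, 11189 and 49384 in epithelium. Slc4a1, the red cell anion exchanger, read 9469 on mesenchyme 1 and 749.7 and 483 on mesenchyme 2 and 3. The part of blood cells in the signals of Lyve1, Tal1, Lmo2, Icam2 and Vwf was not tested.

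A list of 40 other endothelial genes was read in the same way. Of 33 tested, 14 passed as higher in mesenchyme and 0 as higher in epithelium (18 and 0 without mesenchyme 1), with a median difference of 1.78 (1.95). Of all tested genes 4.03% passed as higher in mesenchyme and 1.95% as higher in epithelium, or 8.2% and 6.41% without mesenchyme 1. Adgrf5, an endothelial adhesion receptor, read 114, 259 and 93.3 in epithelium and 6549, 3790.3 and 3218 in mesenchyme (4.78 ± 0.477, adjusted p = 0.00427). Gimap6, a small GTPase of lymphoid cells and endothelium, read 15.8, 24.6 and 22.6 against 532, 1099.8 and 1105 (4.58 ± 0.472, adjusted p = 0.00431). Cd93, a lectin-like receptor that also binds Mmrn2, read 128, 784 and 367 against 8781, 6471 and 6047 (4.31 ± 0.607, adjusted p = 0.0104, and 0.0608 without epithelium 5). These 3 genes also passed without mesenchyme 1, at 4.58, 4.98 and 4.24.

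Ligands and guidance genes of the vasculature went both ways. Of 26 tested, 5 passed as higher in mesenchyme and 4 as higher in epithelium, where 4.03% and 1.95% of all genes did, and the counts were 12 and 5 without mesenchyme 1 (8.2% and 6.41%). Sema3e, a repulsive ligand of the endothelial receptor Plxnd1, read 12521, 11504 and 10492 in epithelium and 1097, 924 and 387 in mesenchyme (-3.94 ± 0.42, adjusted p = 0.00477). Its receptor Plxnd1 read 276, 191 and 603 against 301, 1438 and 1329 and passed only without mesenchyme 1 (2.13, adjusted p = 0.0266). Ednrb, an endothelin receptor of neural crest and endothelium, read 1372, 1638 and 2198 in epithelium and 19566, 30532 and 25724 in mesenchyme (3.85 ± 0.286, adjusted p = 0.00265). Vegfd, a ligand of Flt4, read 95, 13.1 and 50 against 1295, 451 and 356 (3.35 ± 0.703, adjusted p = 0.0367) and lost the call without any array but mesenchyme 1 (0.0706 to 0.123).

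The other genes of this list that passed were named after their values were seen. Higher in epithelium were Adm, the adrenomedullin that Ramp2 helps to sense (-2.57, adjusted p = 0.00878), Edn1, the endothelin ligand of Ednrb (-2.48, adjusted p = 0.011), and Angpt2, a context-dependent Tek ligand (-1.78, adjusted p = 0.0352). Adm read 2842, 5447 and 4120.3 in epithelium against 733, 669.6 and 582 in mesenchyme, while Ramp2 was higher in mesenchyme. Edn1 likewise read 1582, 892 and 1376 against 211, 203 and 219.6. The Adm probe set is of the kind that can cross-match. Calcrl, the receptor that Ramp2 partners, overlapped between the layers, at 667, 1209.5 and 425 against 1151.5, 1050.5 and 1279. Its difference in limma was 0.71 (adjusted p = 0.419), or 0.74 without mesenchyme 1 (adjusted p = 0.373). Adm and Edn1 lost the call without epithelium 5 or mesenchyme 2 (0.0502 to 0.0621), Edn1 without epithelium 1 as well (0.0836), and Angpt2 without any array but mesenchyme 1 (0.0752 to 0.153). Higher in mesenchyme were Ptprb, the phosphatase that acts on Tek (2.86, adjusted p = 0.0152), the chemokine Cxcl12 (1.86, adjusted p = 0.0235) and the TGF-beta receptor Tgfbr2 (2.08, adjusted p = 0.0119). Ptprb, Cxcl12 and Tgfbr2 lost the call without epithelium 1, epithelium 5 or mesenchyme 2 (0.056 to 0.116), and Cxcl12 without mesenchyme 3 as well (0.0839). Vegfa, the main Kdr ligand, overlapped between the layers, at 979.7, 938 and 1154 against 671, 927 and 1227 (-0.15 ± 0.343, adjusted p = 0.835). Vegfc, the other Flt4 ligand, and Angpt1, the activating Tek ligand, passed only without mesenchyme 1 (2.55, adjusted p = 0.00125, and 2.98, adjusted p = 0.00128).

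Genes of vessel subtypes showed smaller counts. The shares of all tested genes were 4.03% higher in mesenchyme and 1.95% higher in epithelium, or 8.2% and 6.41% without mesenchyme 1. Of 13 tested arterial and Notch genes 3 passed, all higher in mesenchyme (4 and, higher in epithelium, 1 without mesenchyme 1), namely Notch4, the endothelial Notch receptor (2.88 ± 0.633, adjusted p = 0.043), Sema3g (2.94 ± 0.516, adjusted p = 0.0206) and the Notch target Hey1 (1.39 ± 0.309, adjusted p = 0.0444, and 0.225 with median centring). Notch4 read 28.8, 95.7 and 38.7 in epithelium and 212, 698 and 660.1 in mesenchyme. Of 10 tested venous and lymphatic genes 3 passed as higher in mesenchyme (4 without mesenchyme 1), namely Nrp2, a co-receptor for VEGF-C (3.23 ± 0.502, adjusted p = 0.0139), the forkhead factor Foxc2 of lymphatic valves (3.13 ± 0.54, adjusted p = 0.0191) and Mmrn1, a multimerin of lymphatic endothelium and platelets (2.33 ± 0.382, adjusted p = 0.0162). Mmrn1 read 142, 217 and 276 against 1332, 922 and 1060.5, with no overlap, whereas the layers overlapped for Prox1. With the mean of its probe sets Mmrn1 missed the threshold (adjusted p = 0.164). Leaving out 1 array ended these calls in 2 of 4 tested cases for Sema3g, in 5 of 6 for Notch4, Hey1 and Mmrn1 and in 4 of 6 for Nrp2 and Foxc2, and in each case the call held without mesenchyme 1. Of the 10 venous and lymphatic genes, 6 had every mesenchymal array above every epithelial array and 1 had the reverse. Of all tested genes 13.2% and 15.5% did. The reverse case was Pdpn (-1.11, adjusted p = 0.118 in limma). The layers overlapped for Nr2f2 (-0.14, or 0.65 without mesenchyme 1) and Ephb4 (-0.32, or 0.11).

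Pericytes, the mural cells that coat capillaries, were represented by 8 tested genes, of which 1 passed. Without mesenchyme 1, 2 passed as higher in mesenchyme (Abcc9 and Pdgfrb) and 1 as higher in epithelium (Steap4, -2.27, adjusted p = 0.00786). Of all tested genes 4.03% passed as higher in mesenchyme and 1.95% as higher in epithelium, or 8.2% and 6.41% without mesenchyme 1. The gene that passed with 6 arrays was Abcc9, a potassium channel subunit of mural cells (3.39 ± 0.751, adjusted p = 0.0441), which lost the call without any array but mesenchyme 1 (0.0523 to 0.186). Pdgfrb read 1137, 584 and 1178 in epithelium and 1566, 5984 and 9159 in mesenchyme (2.24 ± 0.668, adjusted p = 0.112, and 3.03 with adjusted p = 0.00304 without mesenchyme 1), and Notch3 read 3510.2, 3902 and 2569.7 against 2826, 3068 and 2584. Among 13 genes known from endothelium of particular organs, 11 were higher on mesenchyme 1 than on mesenchyme 2 and 3, where 36% of all tested genes were. Of 11 tested, 2 passed as higher in mesenchyme and 1 as higher in epithelium, and without mesenchyme 1 the counts were 3 and 1 of 9. The shares of all tested genes are those given above for the pericyte genes. Slc38a5, an amino acid carrier of brain endothelium that other cells also use, passed (4.89 ± 0.614, adjusted p = 0.00741, and 0.0505 without epithelium 1) and read 2325, 601 and 684 on mesenchyme 1, 2 and 3. Npr3, the natriuretic peptide clearance receptor of endocardium and other cells, passed (3.30 ± 0.397, adjusted p = 0.00671, and 0.165 with the mean of its probe sets), and Slc2a1, the glucose carrier of brain endothelium and epithelia, was higher in epithelium (-1.92 ± 0.376, adjusted p = 0.0296), a call that ended without epithelium 1, epithelium 5, mesenchyme 2 or mesenchyme 3 (0.0536 to 0.152).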

How the data were processed

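Epithelium (arrays 1, 2 and 5) and mesenchyme (arrays 1, 2 and 3) were grouped by their sample titles. The deposited table holds 1 intensity per probe set on a linear scale, made with GCOS per the submitters' processing notes, whose version and settings are not stated in the labels. Each array's mean without the top and bottom 2% of probe sets was 1500 in the table as deposited.

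Of 45101 probe sets, 64 controls were left out, and the platform annotation gave 34945 a single gene, 932 several and 9160 none. Because the medians of the arrays ran from 126 to 254, a ratio of 2.02, log2(signal + 16) was quantile normalized. The difference between layers came from limma (version 3.58.1, R 4.3.3), using lmFit and a trended eBayes without covariates. Benjamini-Hochberg adjustment covered the 13717 tested genes (13576 without mesenchyme 1). The number of arrays limits the precision. Plvap, Vwf, Gimap6, Vegfd, Notch4, Sema3g, Foxc2 and Slc38a5 had every epithelial array below the filter and were tested only through their mesenchymal signal. Replicate numbers 1 and 2 occur in both layers, but the labels state no pairing, so none was used. Deviations from the layer means correlated at r = -0.0332 and -0.00558 across probe sets for same-numbered arrays. Differently numbered arrays gave -0.0817 to 0.0631. With 3 arrays per layer and mesenchyme 1 standing apart, these values cannot decide whether the arrays are paired. The script was tested on simulated data.

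The members and lists were chosen with earlier results of these data known. Named are all members and, of each other list, up to 3 genes with the largest difference past the threshold, or the 2 brightest where fewer than 2 passed. Plxnd1, Vegfa, Vegfc, Angpt1, Calcrl, Ppbp, Mrc1, C1qb, Steap4, Pdpn, Nr2f2 and Ephb4 were added after their values were seen. So were the mesenchymal markers ranked by epithelial array and the genes so described in the text. Alternatives changed the offset, normalization, filter, probe sets, variance model, weights, block and arrays.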

Additional observations from a re-analysis of the deposited data

How the results depend on the processing

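With 18 alternatives, 21 members passed in the fit described, and the count stayed within 1.5 times of that under all but the replicate block and 4 of the 6 arrays left out. With the replicate number as a replicate block, which leaves 1 residual degree of freedom, 0 members and 0 of 13717 genes passed in limma, with 1460 genes and 25 of 31 members at an unadjusted p under 0.05 (2670 genes without the block), and the shared numbers were not shown to pair the arrays. Leaving out 1 array moved the members' count between 8 and 23, their median between 3.09 and 3.67 and the genes past the threshold from 820 to between 143 and 1983. Array weights raised the genes past the threshold to 5109, with 27 members. Averaging all probe sets of a gene lowered the members' median to 2.76 and turned Eng from -0.06 to 1.84 (adjusted p = 0.0226), and Laptm5 turned to -0.55 (adjusted p = 0.63) with unique probe sets only. Calls of single members also ended with no filter (6 members), with an offset of 1 (3) or 64 (1, Sox18), and with an eBayes fit without a trend (3) or made robust (1, Sox18). The cause of these changes was not tested. Normalization moved the median over all tested genes, at -0.12, to -0.06 with none and -0.23 with median centring, and the members' differences do not subtract it. Testing every probe set, added after the data were seen, gave 22 members. Signal over background could not be judged without detection calls, which limits the dim members Tie1, Rasip1, Pecam1 and Flt1.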
